A study of Mus musculus with 21 samples.

Results

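Complement components are the proteins of the complement cascade, and 9 genes that encode its early components in the mouse were examined in forebrain RNA across all 6 groups of the study. They were C1qa, C1qb, C1qc, C1ra, C1s1, C2, C3, C4b and Cfb. The symbols were matched to the Ensembl mouse gene identifiers of the count table, which gave 9 of its 55401 genes, and all 9 were also among the 37538 genes of the FPKM table.

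The study asked whether human APOE isoforms alter tau-driven disease in mice. The 3 parental groups, E2H, E3H and E4H, held 3 mice each, on a C57BL6 background, with the mouse Apoe gene replaced on both alleles by human APOE2, APOE3 or APOE4. They were 9 to 10 months old. PS/E2H, PS/E3H and PS/E4H are the PS19 groups, with 4 mice each that carried the same homozygous replacement and were heterozygous for the PS19 transgene, which encodes human tau with the P301S mutation under a prion promoter. The PS19 line came from a mixed B6/C3H background and was backcrossed to the APOE lines, and its mice were taken when their hindlimbs became paralyzed. Transgene, paralysis, strain background and age at death therefore cannot be told apart when a PS19 group is set against its parental line.

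Complement is a set of secreted proteins that bind to a surface and cut one another in sequence. In the classical pathway, C1q recognises the target, and the proteases C1r and C1s ride on it. Of these C1s cuts C4 and C2, and the pieces form an enzyme that cuts C3, whose large fragment then coats the target. In the alternative pathway, factor B takes the place of C2 and amplifies the deposit of C3. In the brain, C1q is made chiefly by microglia, C4 and C3 are also made by reactive astrocytes, and C1q and C3 are known for tagging synapses that microglia remove.

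Each library held 59265459 to 75932183 counts. CPM is the count scaled to library size after TMM normalization over the 21 libraries and serves to compare mice. FPKM, which also divides by transcript length, serves to compare genes. Mice of 1 group were compared pairwise, and in all 27 pairs the counts differed beyond counting error (chi-square divided by the number of genes, 19.2 to 79.9). The 9 genes together took 0.0177% to 0.0247% of the counts of a parental library and 0.0442% to 0.131% of those of a PS19 library.

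The labels were checked against genes that the design touches. Mouse Apoe, the replaced gene, still had 617 to 1164 counts in each of the 21 mice, and transcripts of human APOE and human tau were not analysed here. Prnp, whose promoter drives the transgene, rose in all 3 PS19 groups, with log2 fold changes of 0.91, 0.75 and 1.02 in mice of PS/E2H, PS/E3H and PS/E4H, respectively (adjusted p = 0.00262, 0.00251 and 0.000141 in edgeR's quasi-likelihood test after Benjamini-Hochberg adjustment). Mapt, the mouse tau gene, gave log2 fold changes of 0.04, -0.07 and -0.16 in the same order and did not pass. The 5 forebrain markers, led by Neurod6, summed to 136 to 262 CPM in every mouse, and 5 markers of hindbrain and spinal cord, Hox genes among them, to at most 1.23 CPM.

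The libraries fell into 2 kinds by genes of the sex chromosomes. In 17 libraries Xist, the RNA that silences an X chromosome in female cells, had 12188 to 36358 counts and the Y-linked Ddx3y at most 21. In the other 4, E4H 3, PS/E2H 2, PS/E4H 1 and PS/E4H 4, Ddx3y had 2517 to 4246 counts and Xist 164 to 189. By these genes the 4 libraries came from male mice and the 17 from female mice. This is the reverse of the methods, which describe as many mice of each group as female as had high Ddx3y, and the rest as male. Why they differ was not tested. Comparisons of PS19 with parental mice that held any of these 4 libraries were also fitted without them, and results that changed are given with both values. Comparisons between APOE lines, and of the PS19 difference between lines, were not fitted without these 4 libraries.

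On the FPKM scale the C1q genes stood highest of the 9 in all groups. In E3H mice the mean level was 40.3 ± 1.44 FPKM for C1qa, 39.6 ± 2.81 for C1qb, 18.7 ± 1.41 for C1qc and 10.5 ± 0.844 for C4b (SD, n = 3). C1qa and C1qb, neighbours in this order, did not differ beyond their spread, whereas C1qc and C4b each stood apart from the gene above. The other 5 lay between 0.698 FPKM for C2 and 1.17 FPKM for C1ra in E3H mice, with C1s1 at 0.763, C3 at 0.762 and Cfb at 0.818 FPKM, and C2, C3, C1s1 and Cfb lay within about the spread of one another. Ranked by mean FPKM among 37538 genes, C1qa stood at place 1020 in E3H and 227 in PS/E3H mice, C1qb at 1051 and 277, and C4b at 4338 and 775. C3 moved from place 14241 in E3H to 2712 in PS/E3H mice, which put it next after C4b among the 9, while Cfb stood at 13995 and 14844. That place of C3 rests on a mean of 16.6 ± 17.0 FPKM (SD, n = 4), from 0.826 in PS/E3H 1 to 39.9 in PS/E3H 4. In the PS19 groups the order by mean FPKM was C1qa, C1qb, C1qc, C4b, C3, C1ra and C2, then Cfb and C1s1 in PS/E2H and C1s1 and Cfb in PS/E3H and PS/E4H. There C1qa averaged 130 ± 6.33, 133 ± 31.6 and 172 ± 21.3 FPKM and C1qb 118 ± 9.07, 116 ± 24.8 and 146 ± 27.7 FPKM in mice of PS/E2H, PS/E3H and PS/E4H, respectively (SD, n = 4). In each PS19 mouse but PS/E3H 1 the FPKM of C1qa was above that of C1qb.

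The C1q subunits are encoded side by side on the minus strand of chromosome 4, within 18675 bases of GRCm38. C1qb (ENSMUSG00000036905) spans 136880129 to 136886187, C1qc (ENSMUSG00000036896) 136889804 to 136893065 and C1qa (ENSMUSG00000036887) 136895917 to 136898803, with 3616 and 2851 bases between them. The A, B and C chains that they encode join into the C1q molecule, which recognises antibody bound to antigen and many other surfaces. Of the 50-base windows of their transcripts, 0% occurred in another gene.

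The start regions of C1qb and C1qc are shown because these genes moved together across mice, and that of C3 because it varied most. The sequences are RefSeq promoter windows of GRCm38.p6, from 250 bases before the RefSeq start to 50 after, read on the minus strand: chr4:136886151-136886450 for C1qb, chr4:136892865-136893164 for C1qc and chr17:57228087-57228386 for C3. Capitals mark matches to any of 4 motifs searched on both strands, GAGGAA (the core of PU.1 sites), TTGCNNAA (C/EBP), GAAA followed after any 2 bases by GAAA (IRF) and TTCNNNGAA (STAT).
C1qb: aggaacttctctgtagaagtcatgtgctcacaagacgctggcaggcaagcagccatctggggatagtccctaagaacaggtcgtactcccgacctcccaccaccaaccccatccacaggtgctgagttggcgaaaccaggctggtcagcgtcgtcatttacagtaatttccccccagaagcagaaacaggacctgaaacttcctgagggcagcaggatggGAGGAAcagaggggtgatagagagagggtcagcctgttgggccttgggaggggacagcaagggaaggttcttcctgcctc
C1qc: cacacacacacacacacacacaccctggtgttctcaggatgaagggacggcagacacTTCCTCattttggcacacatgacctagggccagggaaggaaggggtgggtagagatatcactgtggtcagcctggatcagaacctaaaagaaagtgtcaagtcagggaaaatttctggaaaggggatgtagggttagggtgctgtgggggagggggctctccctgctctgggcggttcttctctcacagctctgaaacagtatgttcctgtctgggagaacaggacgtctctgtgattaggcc
C3: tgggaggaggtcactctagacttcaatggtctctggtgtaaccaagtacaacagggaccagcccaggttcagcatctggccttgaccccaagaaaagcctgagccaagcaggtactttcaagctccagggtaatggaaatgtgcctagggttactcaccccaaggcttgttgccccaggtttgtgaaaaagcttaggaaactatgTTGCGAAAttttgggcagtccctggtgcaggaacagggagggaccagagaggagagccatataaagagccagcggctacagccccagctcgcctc
With the start base counted as 0, C1qb held GAGGAA at -30, C1qc its reverse complement TTCCTC at -193, and C3 TTGCNNAA at -45, and no other match to the 4 motifs was in these 3 windows. Of all 32851 promoter windows in the table, 28.3% held GAGGAA, 10.8% TTGCNNAA, 3.44% the IRF motif and 8.3% TTCNNNGAA. In 2 more members with an entry, the C1ra window chr6:124512371-124512670 held GAGGAA, TTGCNNAA and TTCNNNGAA once each, and the first of a pair of C1s1 windows, chr6:124542310-124542609, held TTGCNNAA once, while the other held 0 matches. C1qa, C2, C4b and Cfb had no entry.

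C1qa was at 51.6, 65.4 and 47.6 CPM in the E2H mice, 47.0, 41.5 and 43.6 CPM in the E3H mice and 36.9, 39.2 and 37.5 CPM in the E4H mice. It was at 145, 156, 149.7 and 141 CPM in the PS/E2H mice, 100.9, 165, 152 and 177 CPM in the PS/E3H mice and 229, 182, 183 and 183 CPM in the PS/E4H mice. The lowest PS19 mouse, PS/E3H 1, was above the highest parental mouse, E2H 2. How many of all genes separate all PS19 from all parental mice was not counted, here or for the genes below. PS/E4H 1 stood above the other 3 mice of its group, which lay within about 1 CPM of one another.

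C1qb was at 58.1, 72.3 and 50.6 CPM in E2H, 49.3, 44.6 and 41.6 CPM in E3H and 43.8, 45.5 and 42.9 CPM in E4H mice. It was at 138, 153, 142 and 128 CPM in PS/E2H, 106, 123, 148 and 169 CPM in PS/E3H and 212, 143, 155 and 179.6 CPM in PS/E4H mice. C1qc followed it at 34.7 to 57.0 CPM in the parental mice and 86.1 to 185 CPM in the PS19 mice. For both genes every PS19 mouse was above every parental mouse, E2H 2 was the highest parental mouse, PS/E3H 1 the lowest PS19 mouse and PS/E4H 1 the highest.

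The ratio of FPKM between the subunits was narrow for C1qc to C1qb, from 0.407 to 0.4998 over the 21 mice with a median of 0.457. The ratio of C1qa to C1qb was 0.8805 to 1.09 in the parental mice and 0.995 to 1.41 in the PS19 mice, with the highest values in PS/E3H 2 (1.41) and PS/E4H 2 (1.34). The ranges overlapped, and this shift was described without a test. The deviations of C1qb and C1qc from their group means had a Pearson r of 0.915 over the 21 mice, and those of C1qa and C1qb an r of 0.82. These values come from the same libraries for both genes and share their depth and scaling.

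**Figure D1:**
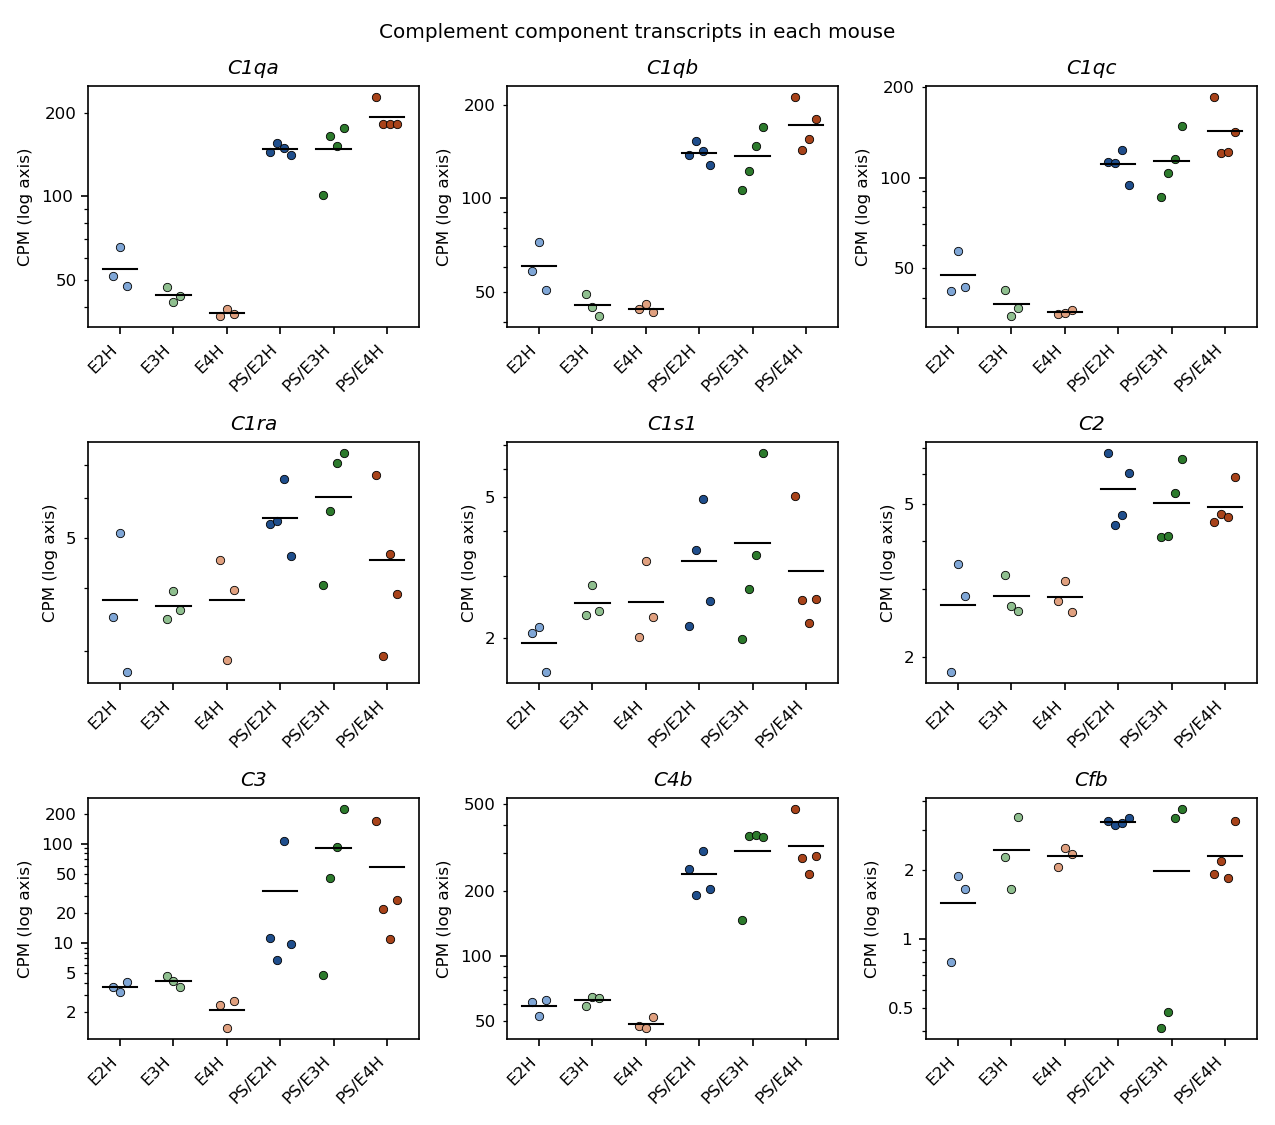
Level of each of the 9 complement genes in each mouse, in CPM on a log axis, by group, with each point a mouse and each bar the group mean. For C1qa, C1qb, C1qc, C2, C3 and C4b all 12 PS19 mice lie above all 9 parental mice, and C3 spreads most within the PS19 groups. Within the E2H, E3H and E4H lines, every PS19 mouse exceeded every parental mouse for 6.47%, 10.9% and 14.2% of genes tested. The share of genes that do so over all lines together was not counted.

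**Figure D2:**
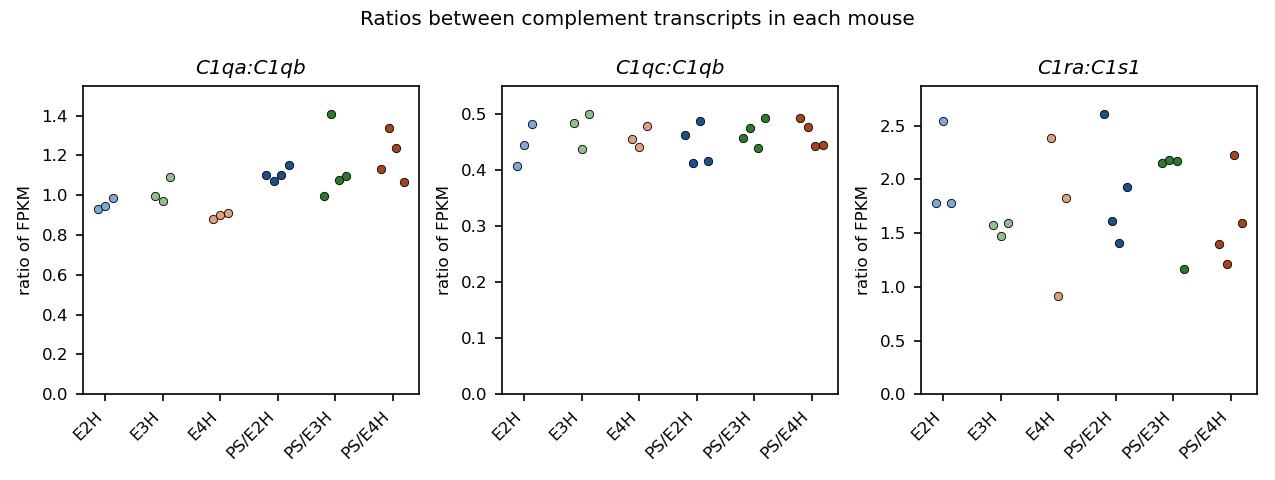
Ratio of FPKM between pairs of complement genes in each mouse, by group, on linear axes that start at 0. C1qc to C1qb stays between 0.407 and 0.4998, while C1ra to C1s1 ranges from 0.917 to 2.61.

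C1ra and C1s1 encode the serine proteases that are activated on C1q. They lie 6901 bases apart on chromosome 6, C1ra (ENSMUSG00000055172) at 124512405 to 124523443 on the plus strand and C1s1 (ENSMUSG00000038521) at 124530345 to 124542359 on the minus strand. C1ra was at 2.72 to 5.14 CPM in the parental and 2.93 to 7.38 CPM in the PS19 mice, and C1s1 at 1.60 to 3.30 and 1.99 to 6.65 CPM. The parental and PS19 ranges overlapped for both genes, with PS/E3H 4 the highest mouse for each. Near copies make their counts uncertain, since 50.8% of the 50-base windows of C1ra transcripts also occur in another gene, most often C1rb, and 21.8% of those of C1s1 in C1s2. The 2 near copies themselves held 12 to 74 counts for C1rb and 0 to 37 for C1s2 per mouse.

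C4b encodes complement component C4 and C2 the protease that joins its fragment. C4b (ENSMUSG00000073418) spans chromosome 17, 34728380 to 34743882, and C2 (ENSMUSG00000024371) 34862604 to 34898265, both on the minus strand in the class III region of the H-2 complex. C4b was at 61.6, 52.6 and 62.6 CPM in E2H, 58.5, 64.8 and 64.3 CPM in E3H and 47.3, 46.4 and 52.2 CPM in E4H mice. It was at 251, 191.5, 305 and 205 CPM in PS/E2H, 146, 359, 361 and 356 CPM in PS/E3H and 477, 284, 239.7 and 289 CPM in PS/E4H mice. Every PS19 mouse was above every parental mouse by more than 2 times, PS/E3H 1 was lowest among PS19 mice and PS/E4H 1 highest. The near copy C4a shares 34.6% of the 50-base windows of C4b transcripts and held 68 to 395 counts per mouse, against 3018 to 29458 for C4b.

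C2 was at 1.82, 3.48 and 2.88 CPM in E2H, 3.26, 2.71 and 2.63 CPM in E3H and 2.79, 3.15 and 2.62 CPM in E4H mice. It was at 6.80, 4.40, 4.68 and 6.03 CPM in PS/E2H, 4.10, 4.14, 5.34 and 6.55 CPM in PS/E3H and 4.50, 4.71, 4.63 and 5.87 CPM in PS/E4H mice. All 12 PS19 mice were above all 9 parental mice, by a small margin. Part of the C2 counts is uncertain, since 38.7% of the windows of its transcripts also occur in Gm20547, a gene model that joins C2 and Cfb.

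C3 (ENSMUSG00000024164, chromosome 17, 57203970 to 57228136, minus strand) encodes the central component of all complement pathways. It was at 3.59, 3.19 and 4.03 CPM in E2H, 4.61, 4.15 and 3.61 CPM in E3H and 2.37, 1.38 and 2.60 CPM in E4H mice. It was at 11.3, 6.69, 107 and 9.71 CPM in PS/E2H, 4.76, 45.2, 92.5 and 224 CPM in PS/E3H and 171, 22.2, 11.004 and 27.2 CPM in PS/E4H mice. Each PS19 mouse was above all parental mice in CPM, yet PS/E3H 1 exceeded the highest of them, E3H 1 at 4.61 CPM, only narrowly. Within a PS19 group the highest mouse was 15.9, 47.1 and 15.5 times the lowest in PS/E2H, PS/E3H and PS/E4H, with the most C3 in PS/E2H 3, in PS/E3H 4 and in PS/E4H 1. The deviations of C3 and C4b from their group means had a Pearson r of 0.906 over the 21 mice.

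Cfb (ENSMUSG00000090231, chromosome 17, 34856374 to 34862518, minus strand) encodes factor B, the protease of the alternative pathway, and starts 85 bases from the end of C2. It was at 0.797, 1.88 and 1.66 CPM in E2H, 2.27, 1.66 and 3.40 CPM in E3H and 2.06, 2.50 and 2.36 CPM in E4H mice. It was at 3.26, 3.14, 3.21 and 3.35 CPM in PS/E2H, 0.41, 0.481, 3.36 and 3.69 CPM in PS/E3H and 1.93, 2.19, 1.84 and 3.26 CPM in PS/E4H mice. PS/E2H mice lay above E2H mice, and in PS/E3H a pair of mice lay below every other mouse of the study.

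Gm20547 (ENSMUSG00000092511, 34856412 to 34882042) overlaps both Cfb and C2 and shares 73% of the 50-base windows of Cfb transcripts. Its counts were 283, 0 and 59 in E2H, 0, 6 and 11 in E3H and 0 in all 3 E4H mice. They were 0 in all 4 PS/E2H mice, 198, 210, 0 and 0 in PS/E3H mice and 222, 0, 0 and 0 in PS/E4H mice. Where Gm20547 had 198 counts or more, Cfb counts were 29 to 119, namely in E2H 1, PS/E3H 1, PS/E3H 2 and PS/E4H 1, so the Cfb level in those 4 mice is uncertain.

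**Figure D3:**
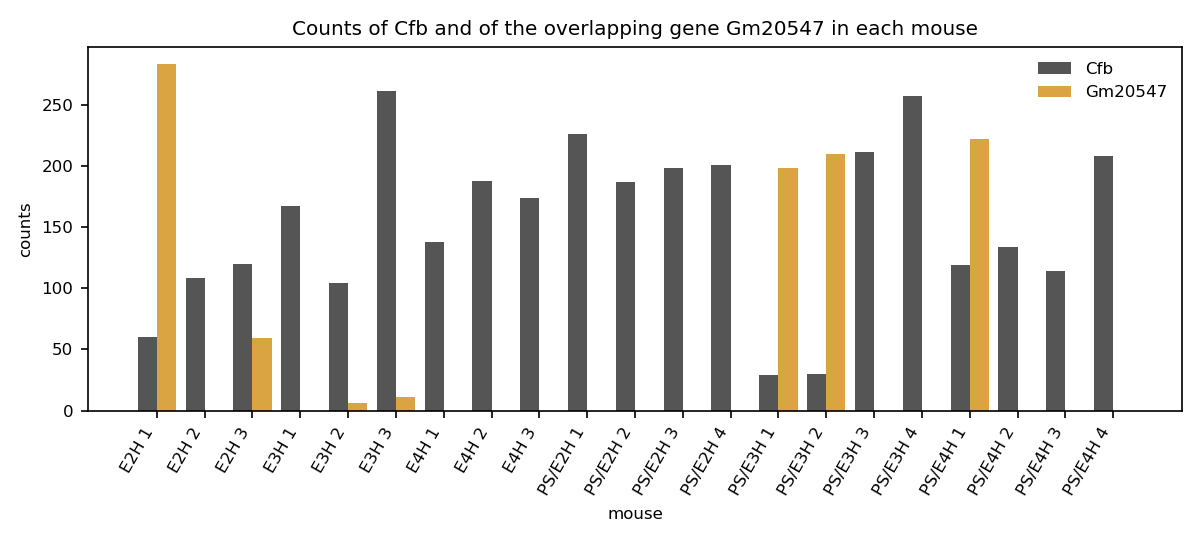
Counts of Cfb and of the overlapping gene Gm20547 in each mouse, as bars that start at 0. The mice with the fewest Cfb counts, PS/E3H 1 and PS/E3H 2 with 29 and 30, hold 198 and 210 counts of Gm20547.

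Setting each PS19 group against its parental line asked how expression differs at end-stage tau disease on a given APOE background. A gene "passed" at an adjusted p under 0.05 and was "called" with a fold change of at least 2 besides. In bulk tissue, more RNA per cell cannot be told apart from more cells that make it, here or in any comparison that follows.

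In PS/E2H mice, the C1q subunits and C4b were higher than in E2H mice, at 2 to 4 times the level. C1qa averaged 148 ± 6.51 CPM (SD, n = 4) against 54.9 ± 9.35 CPM (SD, n = 3), and C4b 238 ± 51.6 against 58.9 ± 5.55 CPM. The log2 fold change was 1.43 for C1qa (standard error 0.117, adjusted p = 0.000984 in edgeR's quasi-likelihood test after Benjamini-Hochberg adjustment), place 5 in the order of p among 20617 genes tested. It was 1.22 for C1qb, 1.22 for C1qc and 2.01 for C4b (adjusted p = 0.00309, 0.00371 and 0.000984, same edgeR test). The remaining 5 genes did not pass, with log2 fold changes of 0.53 for C1ra, 0.76 for C1s1, 1.01 for C2, 3.21 for C3 and 1.17 for Cfb. So 4 of 9 passed and 4 were called, where 0.669% of all genes tested passed as higher and 0.451% were called. The median log2 fold change was 1.22 over the 9 and -0.02 over all genes. In 8 of 9 every PS/E2H mouse exceeded every E2H mouse in CPM, as did 6.47% of genes tested, and in FPKM also in 8. The 8 include Cfb, whose level in E2H 1 is uncertain, at 0.797 CPM beside 3.76 CPM of the overlapping Gm20547. With the counts of Gm20547 added, the log2 fold change of Cfb was much smaller and is given separately. Without PS/E2H 3 the log2 fold change of C3 was 1.36 and passed (adjusted p = 0.0468, edgeR), and DESeq2 on all 7 mice also passed C2 and Cfb (adjusted p = 0.00919 and 0.00874). DESeq2 gave 1 of the 9 genes no adjusted p. C2 passed as well in 1 fit of all 6 groups (adjusted p = 0.0162, edgeR).

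In PS/E3H mice, the C1q subunits, C4b and C3 were higher than in E3H mice. C1qa averaged 149 ± 33.5 CPM (SD, n = 4) against 44.0 ± 2.77 CPM (SD, n = 3), C4b 305 ± 106 against 62.5 ± 3.48 CPM and C3 91.7 ± 95.4 against 4.12 ± 0.501 CPM. The log2 fold changes were 1.74 for C1qa, 1.58 for C1qb and 1.56 for C1qc (adjusted p = 0.0011, 0.00105 and 0.00176, same edgeR quasi-likelihood test). C4b gave 2.27 (standard error 0.271, adjusted p = 0.0028) and C3 gave 4.46 (standard error 0.982, adjusted p = 0.0298) in the same edgeR test. C1ra at 0.70, C1s1 at 0.54, C2 at 0.79 and Cfb at -0.32 on the log2 scale did not pass, and C2 missed the threshold narrowly (adjusted p = 0.0511, edgeR). Without PS/E3H 4 the value of C1s1 was 0.10. Of 9 genes, 5 passed and 5 were called, against 3.35% and 1.2% of the 21251 genes tested, with a median log2 fold change of 1.56. In 7 of 9 every PS/E3H mouse exceeded every E3H mouse in CPM, as did 10.9% of genes tested. In FPKM 5 of 9 did, since C1ra and C3 overlapped, with C3 at 0.826 FPKM in PS/E3H 1 and 0.831 FPKM in E3H 1. The C3 call was lost without E3H 1, E3H 2, E3H 3, PS/E3H 3 or PS/E3H 4 (adjusted p = 0.136, 0.114, 0.125, 0.0532 and 0.0568 by edgeR), without the filter on low counts (0.0626) and in limma on log2(FPKM + 1) and log2(FPKM + 0.1) (0.0938 and 0.0848), and without PS/E3H 4 its log2 fold change was 3.51. It was 4.37 to 4.55 without E3H 1, E3H 2, E3H 3 or PS/E3H 3, and 4.465 without the filter. With the replicate number as a block it was 2.86 and did not pass (adjusted p = 0.112, edgeR). Without PS/E3H 1, the mouse lowest in the C1q genes, C4b and C3, C1ra and C2 passed as well (adjusted p = 0.00811 and 0.0202, edgeR), as they did in DESeq2 with all mice, and C2 passed in 1 fit of all 6 groups (adjusted p = 0.0373, edgeR).

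In PS/E4H mice, the C1q subunits, C4b, C3 and C2 were higher than in E4H mice, with C1qa at 5.14 and C4b at 6.65 times the E4H level. C1qa averaged 194 ± 23.0 CPM (SD, n = 4) against 37.9 ± 1.22 CPM (SD, n = 3), C4b 323 ± 105 against 48.6 ± 3.10 CPM and C3 57.8 ± 75.7 against 2.12 ± 0.649 CPM. The log2 fold change of C1qa was 2.36 (standard error 0.0934, adjusted p = 2.3e-06, same edgeR quasi-likelihood test), first in the order of p among 20844 genes. C1qb gave 1.97, C1qc 1.99, C4b 2.73, C3 4.77 and C2 0.79 on the log2 scale (adjusted p = 4.4e-05, 4.4e-05, 6.9e-05, 0.00984 and 0.0107, same edgeR test). C1ra at 0.27, C1s1 at 0.29 and Cfb at -0.00025 did not pass. Of 9 genes, 6 passed and 5 were called, against 8.62% and 2.4% of genes tested, with a median log2 fold change of 1.97. In 6 of 9 every PS/E4H mouse exceeded every E4H mouse in CPM, as did 14.2% of genes tested, and in FPKM also in 6. The fit of libraries with low Ddx3y alone leaves out E4H 3, PS/E4H 1 and PS/E4H 4 and so rests on fewer mice in both groups. In it C2 gave 0.66 and did not pass (adjusted p = 0.0966, edgeR), and C1s1 turned to -0.15, while the other 5 that passed still did. Whether C2 changed through the smaller groups or the kind of library was not tested. C1s1 also turned to -0.041 without PS/E4H 1, where C1ra was at 0.026. With the replicate number as a block C2 gave 0.70 and did not pass (adjusted p = 0.0705, edgeR). The C3 call was lost without E4H 2, at a log2 fold change of 4.54 (adjusted p = 0.0609, edgeR), and without PS/E4H 1 the log2 fold change of C3 was 3.26.

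Over all 21 mice, with the APOE line as a further term, 7 of 9 genes passed as higher in PS19 mice and 5 were called, against 11.4% and 2.24% of the 22863 genes tested. C3 and C4b moved most, with log2 fold changes of 4.13 (standard error 0.674) and 2.34 (standard error 0.16), followed by C1qa at 1.84, C1qc at 1.59, C1qb at 1.59, C2 at 0.87 and C1ra at 0.51. Their adjusted p were 1.1e-04, 1.3e-09, 5.4e-10, 3.7e-09, 1.3e-09, 2.1e-05 and 0.0184 in the same edgeR quasi-likelihood test. C1s1 at 0.54 and Cfb at 0.27 did not pass, with adjusted p of 0.0641 and 0.634 in edgeR. With each mouse left out, Cfb ranged from 0.11 without E2H 1 to 0.40 without E3H 3. The median log2 fold change was 1.59 over the 9 and -0.01 over all genes. Among libraries with low Ddx3y alone C1ra gave 0.49 and no longer passed (adjusted p = 0.0506, edgeR), and with the counts of its near copy added C1s1 passed (adjusted p = 0.0466, edgeR). C1s1 also passed without E4H 2, PS/E3H 1 or PS/E4H 3 (adjusted p = 0.0427, 0.0294 and 0.0452, edgeR) and in DESeq2 (adjusted p = 0.042).

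**Figure D4:**
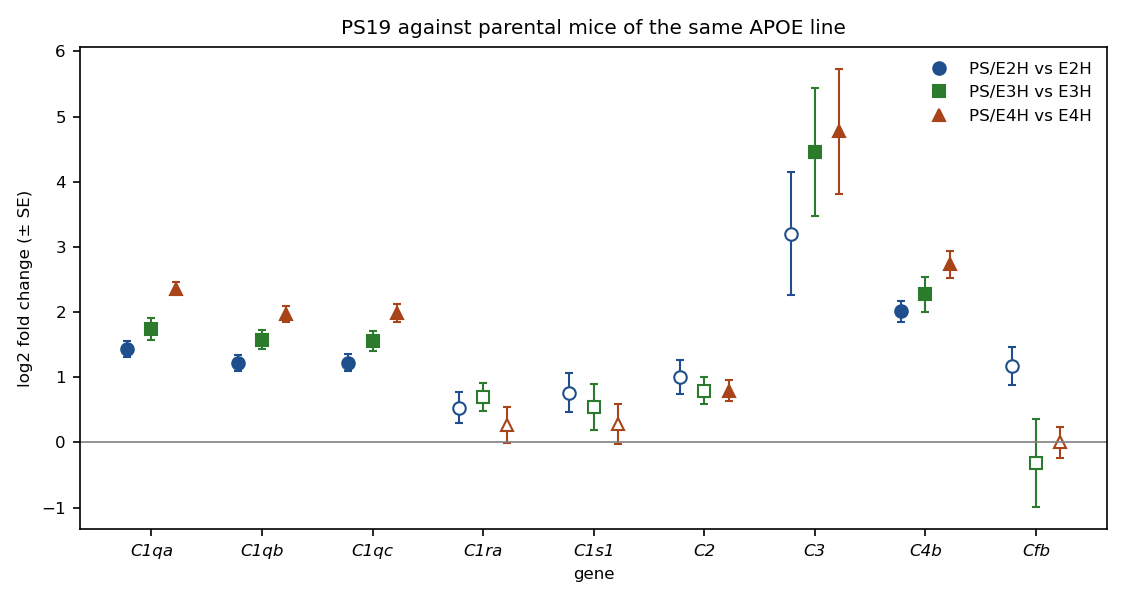
Log2 fold change of each complement gene in a PS19 group against its parental group, with bars of 1 standard error, filled where the gene passed and open where it did not. The C1q genes and C4b are filled in all 3 comparisons, and C3 carries the widest bars.

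For Cfb the log2 fold change depended on whether the counts of Gm20547 were added. With the counts of Gm20547 added to Cfb, an alternative chosen after seeing the data, its log2 fold change was 0.46 in PS/E3H and 0.47 in PS/E4H mice in place of -0.32 and -0.00025, and it did not pass in either (adjusted p = 0.294 and 0.394, edgeR). In PS/E2H mice it was 0.12 in place of 1.17, and in the interaction of E2H minus E3H -0.34 in place of 1.48. Without PS/E3H 1 or PS/E3H 2 the log2 fold change of Cfb in PS/E3H mice was 0.024 and 0.0057.

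Among the parental lines, C1q transcripts stood highest in E2H and lowest in E4H mice, yet none of the differences passed in edgeR. C1qa averaged 54.9 ± 9.35 CPM in E2H, 44.0 ± 2.77 CPM in E3H and 37.9 ± 1.22 CPM in E4H mice (SD, n = 3), C1qb 60.3 ± 11.1, 45.2 ± 3.84 and 44.1 ± 1.29 CPM, and C1qc 47.4 ± 8.35, 38.0 ± 3.88 and 35.9 ± 0.6 CPM. The E4H mice all lay below the E2H mice for C1qa, and E2H 2 was highest for each subunit. The share of all genes with every E4H mouse below every E2H mouse was not counted. C4b and C3 were lowest in E4H mice, C4b at 48.6 ± 3.10 CPM against 62.5 ± 3.48 CPM in E3H.

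In edgeR's quasi-likelihood test 0 of 9 genes passed in E2H against E3H, E4H against E3H or E4H against E2H, where 0.178%, 0.162% and 0.216% of all genes passed in either direction. At an unadjusted p under 0.05 the counts were 3, 3 and 5 of 9, beside 2933 of 20797, 1397 of 20958 and 2570 of 20804 genes, and DESeq2 passed 0, 2 and 2 of the 9, among 599, 134 and 293 genes. The lowest p were those of C1qb in E2H against E3H (0.42 on the log2 scale with a standard error of 0.133, adjusted p = 0.258), C4b in E4H against E3H (-0.37, 0.0686 and 0.107) and C1qa in E4H against E2H (-0.54, 0.123 and 0.304), all in edgeR. Without E2H 2 the log2 fold change of C1qb in E2H against E3H was 0.27. In DESeq2 the last 2 passed, with adjusted p of 0.000855 and 0.0071. These comparisons share the mice of each line in pairs.

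Among PS19 mice, the APOE lines overlapped for most complement genes, and C1qa stood highest in PS/E4H. C1qa averaged 148 ± 6.51 CPM in PS/E2H, 149 ± 33.5 CPM in PS/E3H and 194 ± 23.0 CPM in PS/E4H mice (SD, n = 4). The lowest PS/E4H mouse, at 182 CPM, was above all PS/E2H and PS/E3H mice. The share of all genes that separate in this way was not counted. C3 averaged 33.6 ± 48.7, 91.7 ± 95.4 and 57.8 ± 75.7 CPM, so that the SD was near or above the mean in each group. In edgeR's quasi-likelihood test 0 of 9 genes passed in PS/E2H against PS/E3H, PS/E4H against PS/E3H or PS/E4H against PS/E2H, where 0.113%, 0.0197% and 0.119% of all genes passed. The counts at an unadjusted p under 0.05 were 0, 2 and 4, beside 2383 of 20324, 1324 of 20332 and 2491 of 20202 genes, and DESeq2 passed 0, 0 and 1 of the 9, among 148, 44 and 224 genes. In the last of these DESeq2 gave 1 of the 9 no adjusted p. C1qa gave a log2 fold change of 0.39 in PS/E4H against PS/E3H (adjusted p = 0.759) and 0.38 in PS/E4H against PS/E2H (standard error 0.0843, adjusted p = 0.201), both in edgeR, and DESeq2 passed the latter (adjusted p = 0.0112). Without PS/E3H 1 the log2 fold change in PS/E4H against PS/E3H was 0.24. The largest log2 difference in PS/E2H against PS/E3H was that of C3 at -1.44 (standard error 1.03, adjusted p = 0.562, edgeR), and it was -3.30 without PS/E2H 3 and -0.49 without PS/E3H 4. These comparisons share the mice of each PS19 group in pairs.

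Whether the difference between PS19 and parental mice itself differed between APOE lines was tested as an interaction. The C1q log2 differences were 1.43, 1.22 and 1.22 in the E2H line, 1.74, 1.58 and 1.56 in the E3H line and 2.36, 1.97 and 1.99 in the E4H line for C1qa, C1qb and C1qc. In edgeR's quasi-likelihood test 0 of 9 passed in each of the 3 interactions, where 0%, 0% and 0% of all genes passed, and the members at an unadjusted p under 0.05 numbered 0 for E2H minus E3H, 1 for E4H minus E3H and 5 for E4H minus E2H, beside 1265 of 22133, 847 of 22212 and 2223 of 22031 genes. DESeq2 passed 0, 0 and 2 members, among 8, 11 and 118 genes. C1qa was first in the order of p in E4H minus E2H, with a difference of 0.93 (standard error 0.149, adjusted p = 0.182, edgeR; adjusted p = 4.97e-05, DESeq2). C1qb gave 0.75 and C1qc 0.77 (adjusted p = 0.293 for both, edgeR), and C4b 0.72 (adjusted p = 0.405, edgeR). Cfb gave -1.17 (adjusted p = 0.357, edgeR), whereas with the counts of Gm20547 added its log2 fold change was lower in PS/E2H, at 0.12, than in PS/E4H mice, at 0.47.

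Summed markers of microglia and astrocytes moved with the complement genes. The 10 microglia markers summed to 401, 498 and 407 CPM in E2H, 431, 407 and 439.7 CPM in E3H and 406, 398 and 420.02 CPM in E4H mice. They summed to 693, 697, 775 and 447 CPM in PS/E2H, 591, 736, 757 and 818 CPM in PS/E3H and 899, 749.8, 761 and 863 CPM in PS/E4H mice. None of the 10 was at 0 in all mice of a group. Of the 10, 1, 5 and 8 passed as higher in mice of PS/E2H, PS/E3H and PS/E4H, respectively, and 0 as lower.

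The 8 astrocyte markers summed to 3743, 4221 and 4002 CPM in E2H, 3834, 3766 and 4059 CPM in E3H and 3783, 3729.6 and 3958 CPM in E4H mice. They summed to 5797, 5292, 6352 and 5875 CPM in PS/E2H, 5362, 6483, 6124 and 6810.3 CPM in PS/E3H and 7314, 6500.5, 7181 and 6283 CPM in PS/E4H mice. By group mean FPKM Aldoc was the most abundant except in PS/E3H and PS/E4H, where Gfap was, and 0 markers were at 0. Of the 8, 1, 6 and 6 passed as higher, Gfap by 2.30, 2.66 and 3.08 on the log2 scale (adjusted p = 0.000984, 0.000199 and 2.3e-06, edgeR). For both lists the sum was higher in PS19 than in parental mice. The exception was PS/E2H 4, at 447 CPM of microglia markers, below E2H 2 at 498 CPM. In PS/E2H mice only 1 marker of each list passed, with median log2 fold changes of 0.37 for microglia and 0.32 for astrocyte markers. The part of both lists in the results on the C1q genes and C4b was not tested, and levels relative to both lists are described separately.

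Other lists moved as well. The 9 markers of disease-associated microglia summed to 118 to 165 CPM in parental and 237 to 527 CPM in PS19 mice, with Tyrobp most abundant by group mean, and 6, 9 and 9 of them passed as higher. The 8 markers of reactive astrocytes, Gfap among them, summed to 289 to 457 CPM and to 1129 to 3461 CPM, with 3, 6 and 7 passing as higher. For both lists 0 markers were at 0, and by group mean Serpina3n was the most abundant reactive marker in E4H and Gfap in the other groups. Of 5 markers of perivascular macrophages, 0, 2 and 3 passed as higher, and their sum was 6.30 to 12.5 CPM in parental and 15.6 to 29.3 CPM in PS19 mice, led by group mean by Pf4 or, in PS/E4H, Mrc1, with 0 at 0 in all mice of a group. Their part in the results on complement was not tested.

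Markers of other cells were counted in the same way, with sums given for parental and then PS19 mice and the most abundant gene by group mean. The 7 neuron markers summed to 7345 to 8371 and 6199 to 8202 CPM with Snap25 most abundant, and 0, 0 and 2 passed as higher and 0, 0 and 3 as lower in mice of PS/E2H, PS/E3H and PS/E4H, respectively. The 6 oligodendrocyte markers summed to 4758 to 6926 and 5994 to 9063 CPM with Mbp most abundant, and 0, 6 and 5 passed as higher. The 5 endothelium markers, led by Ly6c1 or, in E3H, Cldn5, summed to 113 to 150.4 and 109 to 161 CPM, with 0, 0 and 1 higher, and the 6 of meningeal fibroblasts, led by Igf2, to 72.1 to 168 and 161 to 281 CPM, with 0, 3 and 2 higher. These lists differ in cell type, and their part in the results on complement was not tested.

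The 6 choroid plexus markers, led by Ttr, summed to 448 to 769 CPM in parental and 422 to 1221 CPM in PS19 mice, and 0, 0 and 0 passed by edgeR, with 1, 0 and 2 at an unadjusted p under 0.05. So were 2203 of 20617, 4541 of 21251 and 6282 of 20844 genes tested. The 5 blood markers, led by Hbb-bs, summed to 121 to 497 and 24.8 to 265 CPM, with 0, 0 and 1 higher. The liver secretes most of the complement of plasma, and the 5 liver plasma proteins, led by group mean by Apoa2 or, in E3H, Alb, summed to 0.532 to 10.9 and 0.403 to 1.16 CPM, with 2, 4 and 3 tested and 0, 1 and 1 lower, Alb both times. Fgb was at 0 in all E2H mice, Alb and Ahsg in all PS/E2H mice, Alb in all PS/E3H mice and Ahsg and Fgb in all PS/E4H mice. The forebrain markers, led by Neurod6, had 0, 2 and 4 of 5 lower, and of the hindbrain and spinal cord markers 2, 0 and 0 were tested and 0 passed by edgeR, 0 of them at an unadjusted p under 0.05. Their part in the results was not tested.

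Relative to the mean log2 CPM of the microglia markers, C1qa was 1.11, 1.13 and 1.49 higher in PS/E2H, PS/E3H and PS/E4H than in the parental group, and C4b 1.66, 1.60 and 1.82 higher. Relative to the astrocyte markers C1qa was 0.88, 1.03 and 1.51 higher and C4b 1.43, 1.5 and 1.84 higher. For both genes and both lists every PS19 mouse was above every parental mouse of its line, and the share of all genes that do so was not counted. Relative levels were not computed for the markers of disease-associated microglia and reactive astrocytes, which moved more. Their median log2 fold changes were 1.14, 1.86 and 1.95 and 2.20, 2.65 and 2.21, against 0.37, 0.59 and 0.85 for microglia and 0.32, 0.41 and 0.52 for astrocyte markers. For C1ra and C1s1 the difference relative to microglia markers was 0.24 and 0.37 in PS/E2H, 0.085 and -0.18 in PS/E3H and -0.64 and -0.62 in PS/E4H mice. For C2 it was 0.70, 0.19 and -0.078 in the same order of groups, and relative to astrocyte markers 0.47, 0.09 and -0.059. For Cfb, which the figure includes, no such value is given because its counts apart from those of Gm20547 are uncertain.

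**Figure D5:**
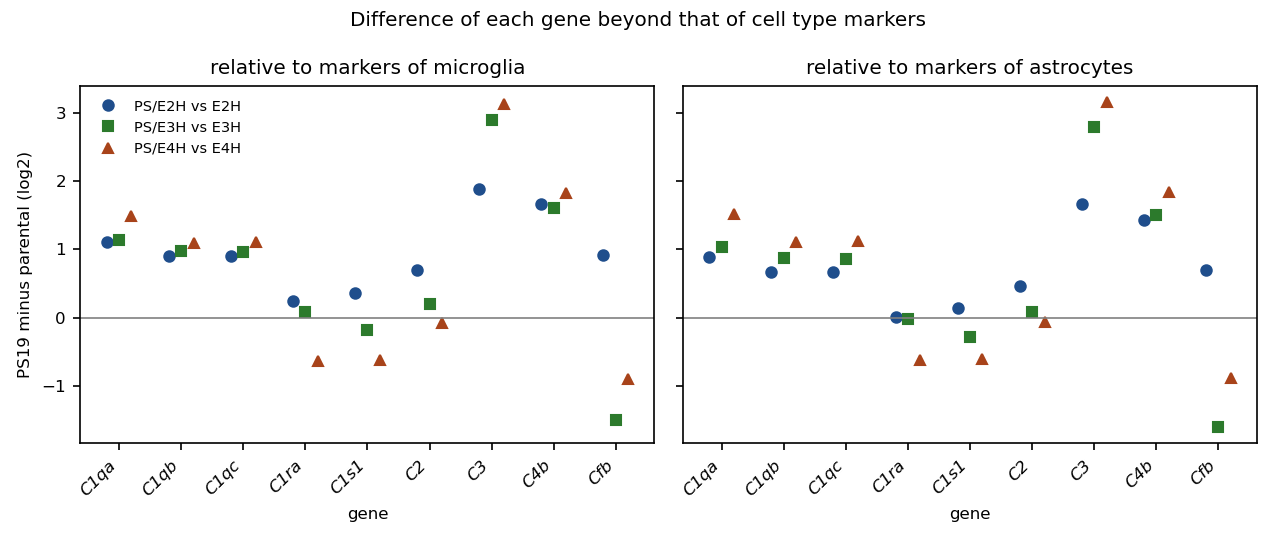
Difference between each PS19 group and its parental group in the log2 level of a complement gene relative to the mean log2 level of a marker list, for markers of microglia and of astrocytes. The C1q genes, C4b and C3 lie above 0 in all 3 comparisons for both lists.

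The other genes of the pathway were taken as lists by role. Of 9 receptors, 2, 4 and 4 passed as higher in mice of PS/E2H, PS/E3H and PS/E4H, respectively, with 8, 7 and 8 tested. Itgax, a chain of complement receptor 4, rose by 3.77, 4.18 and 5.07 on the log2 scale (adjusted p = 0.00215, 3.6e-05 and 4.4e-05 in edgeR's quasi-likelihood test). C3ar1, the receptor of the C3a fragment, rose by 1.52, 1.83 and 2.44, and Itgb2, the chain shared by complement receptors 3 and 4, by 1.57 and 1.99 in PS/E3H and PS/E4H mice. Of 11 initiators of other pathways 6 were tested and 1, 2 and 1 passed as higher, and Colec12, a collectin of the cell surface, rose by 1.06, 0.95 and 0.995 (adjusted p = 0.0227, 0.0159 and 0.00343, edgeR). Masp1, a protease of the lectin pathway, rose by 0.46 in PS/E3H mice (adjusted p = 0.0359, edgeR).

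Of 7 terminal components, which form the pore, 3 were tested and 0 passed in each comparison by edgeR, 0 of them at an unadjusted p under 0.05. Of 19 regulators 18, 19 and 17 were tested, with 1, 3 and 4 passing as higher and 0, 2 and 5 as lower. Of all genes tested 17 of 20617, 429 of 21251 and 1455 of 20844 passed as lower. Clu, which blocks assembly of the pore, rose by 0.57, 0.68 and 0.98 (adjusted p = 0.0474, 0.00448 and 4.4e-05, edgeR). Csmd1 fell by 0.37 and 0.74 and Csmd2 by 0.51 and 0.70 in PS/E3H and PS/E4H mice. Of 3 near copies of members, C4a rose by 1.15 in PS/E4H mice (adjusted p = 0.011, edgeR), and of 16 neighbours of C4b, C2 and Cfb in the H-2 class III region 15 were tested and 0 passed in each comparison by edgeR, with 2, 3 and 2 at an unadjusted p under 0.05. Among all genes tested, 2203 of 20617, 4541 of 21251 and 6282 of 20844 were at an unadjusted p under 0.05. Over all 21 mice 4 terminal components were tested and C6 passed as higher, which no single comparison showed. Its log2 value of 5.21 is not read as a size, since its level in parental mice is not given here. In the same fit the alternative pathway's properdin gene Cfp fell by 0.39 and the neighbour Stk19 fell by 0.18 on the log2 scale.

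Ctss and Ctsd, which encode lysosomal cathepsins, were among the genes outside the 9 whose pattern was most like that of the C1q subunits. By likeness over the 21 mice, among 15677 genes with a median of at least 1 CPM and with the 9 complement genes left aside, the gene whose log2 CPM had the highest Pearson r was Ctss for C1qa (0.991) and C1qb (0.985), Ctsd for C1qc (0.989) and C3ar1 for C4b (0.982). It was S1pr3 for C3 (0.97), Ms4a6c for C2 (0.905), Gbp5 for C1s1 (0.828), Ucma for C1ra (0.826) and Jmjd8 for Cfb (0.669). All 21 mice share their depth and the difference between PS19 and parental mice, which these values include. With the group means removed and the 9 again left aside, C3 remained most like S1pr3 (0.97) and C1ra most like Ucma (0.835), and the most like gene was Agtrap for C1qa (0.9), Inpp5d for C1qb (0.865), Prdx6 for C1qc (0.908) and Erbin for C4b (0.937). It was Pdgfb for C2 (0.867), Rab7b for C1s1 (0.894) and Anxa3 for Cfb (0.814). Of the 27 pairs of a complement gene and a like gene named by each measure, 19 by level and 19 by deviation were also among the first 3 on the FPKM scale. C2 and Cfb, the adjoining genes, had an r of 0.374 by level and 0.662 by deviation, and some of their counts may come from Gm20547.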

How the data were processed

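RNA of the forebrain of 21 mice was sequenced after poly(A) selection with a stranded kit, and the study's methods name Cutadapt, HISAT2, StringTie, gffcompare and ballgown. The mouse build GRCm38.p5 is named in the submitters' processing notes. The authors deposited whole-number counts per gene, not normalized; how the counts were taken from the assembled transcripts, and whether strand was used, is not given in the sources used here. The authors also deposited FPKM per gene, which divides by transcript length and library size. Symbols came from GENCODE M21, which named 55141 of the 55401 genes (99.53%).

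Mice were grouped by their labels, 3 per parental group and 4 per PS19 group, and each library held 59265459 to 75932183 counts, so that counting error is small for all but the lowest genes. Counts were tested with edgeR 4.0.16 (quasi-likelihood, TMM, filterByExpr with a minimum count of 10 and a minimum total of 15) in R 4.3.3 on the mice of each comparison, with Benjamini-Hochberg adjustment over all genes tested. Log2 CPM used a prior count of 0.5. Alternatives were DESeq2 1.42.0, its size factors, no filter, 1 fit of all 6 groups, limma 3.58.1 on log2(FPKM + 1) and log2(FPKM + 0.1) for genes with at least 0.5 FPKM in at least 3 mice, a replicate block, the log2 level of Xist as a covariate where it ranged over more than 5, a fold of at least 1.5 and each mouse left out. The additions of Gm20547 and of near copies, the fits on libraries with fewer than 100 counts of Ddx3y, and the pooled comparison with each mouse left out were chosen after seeing the data. Other values used Python 3.11.15, NumPy 2.4.6, pandas 2.3.3, SciPy 1.17.1 and matplotlib 3.10.9. The fits were tested on simulated data. An exact permutation test of the levels relative to marker lists was planned over 54 differences, but the smallest p that 35 splits of 4 against 3 mice allow is 0.0286, which left it little room to pass after adjustment, and nothing is read from it.

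The genes named in the text are the 9 complement genes in every comparison, the genes of the lists whose adjusted p were among the 3 smallest that passed (some genes of the lists are not reported here), and the genes most like each member. The members and lists were chosen with earlier results of these data known. Protein identity between members was not analysed here.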

Additional observations from a re-analysis of the deposited data

Results flagged for a closer look

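In 7 of 42 sets of 4 mice, 1 mouse stood far from the other 3, where chance gives about 1 in 20. That rate holds for separate sets, and these sets share mice, so no excess over chance is read from the 7. C1qa in PS/E4H 1 was at 229 CPM, with the nearest mouse of the group at 183 CPM. C1s1 in PS/E4H 1 was at 5.03 CPM, with the nearest at 2.58 CPM. C2 in PS/E4H 4 was at 5.87 CPM, with the nearest at 4.71 CPM. C3 in PS/E2H 3 was at 107 CPM, with the nearest at 11.3 CPM, and C3 in PS/E4H 1 was at 171 CPM, with the nearest at 27.2 CPM. C4b in PS/E3H 1 was at 146 CPM, with the nearest at 356 CPM. The FPKM ratio of C1ra to C1s1 in PS/E3H 4 was 1.17, with the nearest at 2.15.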

How the results depend on the processing

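Over all planned and added settings other than leaving out a mouse, 399 of 423 values of single members kept their direction and side of the threshold, 7 no longer passed, 12 passed anew and 5 turned in direction. With each mouse left out, 400 of 420 did, 6 no longer passed, 6 passed anew and 8 turned. A value without an adjusted p was counted as kept if its direction held. Outside the comparisons of PS19 with parental mice, only the member with the lowest p was followed. The calls of the C1q genes and C4b in each PS19 comparison were kept in all 7 fits that left out a mouse. DESeq2's size factors moved the median log2 fold change by at most 0.00633. The cause of the changes below was not tested.

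Genes passing as higher in PS/E2H against E2H numbered 138, and 66 with no filter, 514 in DESeq2 and 437 in 1 fit of 6 groups, and those called 93, and 52, 250, 194 and, in limma on log2(FPKM + 1), 38. In PS/E3H against E3H they numbered 712, and 396 with no filter, 1325 in DESeq2 and 458 in limma on log2(FPKM + 1), and those called 254, and 162 with no filter, 63 and 159 in limma with 1 and 0.1 added and 442 at a fold of 1.5. In PS/E4H against E4H they numbered 1797, and 1110 in libraries with low Ddx3y, and those called 500, and 133 and 333 in limma and 931 at a fold of 1.5. Over all mice those called numbered 511, and 988 at a fold of 1.5.

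Genes passing in DESeq2 numbered 599 for E2H against E3H (37 in edgeR), 134 for E4H against E3H (34), 293 for E4H against E2H (45), 148 for PS/E2H against PS/E3H (23), 44 for PS/E4H against PS/E3H (4) and 224 for PS/E4H against PS/E2H (24), and 8, 11 and 118 in the interactions (0 in edgeR). Members passing in DESeq2 numbered 2 for E4H against E3H, 2 for E4H against E2H, 1 for PS/E4H against PS/E2H and 2 for the interaction of E4H minus E2H. In 1 fit of 6 groups the genes numbered 83, 19, 93, 49, 13 and 100 in the same order of comparisons. With no filter E4H against E3H gave 15 and PS/E4H against PS/E3H 2, and limma gave 2 and 2 for the latter and, on log2(FPKM + 1), 13 for PS/E4H against PS/E2H.

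Same-numbered mice correlated weakly, at -0.172 to 0.112, in their deviations from the group means, and the main fits assumed no pairing. In PS/E2H against E2H all 3 same-numbered pairs, at 0.0322, 0.112 and 0.0747, exceeded the highest correlation with another number. Those were 0.0153, -0.0508 and 0.045. In no other comparison did all same-numbered pairs do so, and whether replicate numbers pair the mice is not settled by these values. With the replicate number as a block, genes passing as higher numbered 221, 355 and 862 in the 3 PS19 comparisons and those called in PS/E3H 141, and genes passing numbered 17 for E4H against E3H, 26 for E4H against E2H, 15 for PS/E2H against PS/E3H and 0 for PS/E4H against PS/E3H. C3 in PS/E3H then gave 2.86 (adjusted p = 0.112, edgeR) and C2 in PS/E4H 0.70 (adjusted p = 0.0705, edgeR).

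Cfb turned to 0.46 in PS/E3H and 0.47 in PS/E4H, and to -0.34 in the interaction of E2H minus E3H, with Gm20547 added, and to 0.0056 in PS/E4H in 1 fit of 6 groups. C1s1 in PS/E4H turned to -0.15 in libraries with low Ddx3y and to -0.041 without PS/E4H 1, and Cfb in PS/E3H turned to 0.024 without PS/E3H 1.

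With each mouse left out, genes passing as higher ranged from 29 to 134 in PS/E2H, 105 to 1404 in PS/E3H, 831 to 1901 in PS/E4H and 2133 to 3032 over all mice, and those called from 28 to 96, 75 to 431, 353 to 571 and 448 to 544. Genes passing ranged from 22 to 55, 17 to 21 and 27 to 55 among parental groups and 14 to 23, 0 to 6 and 15 to 32 among PS19 groups. Members passing ranged from 4 to 5, 4 to 7, 5 to 6 and 7 to 8. Cfb ranged from -0.80 to 0.024 in PS/E3H and -0.20 to 0.10 in PS/E4H, and C1s1 from -0.041 to 0.53 in PS/E4H. C1ra, C1s1, C2 and Cfb had at most 514 counts in a mouse, against at least 2174 for the C1q genes and C4b. Every comparison rests on 3 or 4 mice per group, and the fits that leave out mice rest on fewer. The part of depth in these results was not tested.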
